A study of Mus musculus with 18 samples.

Results

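The genes described here are the receptors of mouse macrophages for the Fc part of immunoglobulin G (IgG), Fcgr1, Fcgr2b, Fcgr3 and Fcgr4, together with Fcer1g, the signalling chain that the activating ones share. They were chosen by symbol from the rows of the expression table, and all 5 were found among its 43309 genes. Bone marrow-derived macrophages from C57BL/6 mice were profiled by RNA sequencing in 6 groups of 3 libraries. The groups were PGRN KO M1, 14-3-3e KO M1, WT M1, PGRN KO M2, 14-3-3e KO M2 and WT M2. PGRN KO cells lack progranulin, a secreted and lysosomal glycoprotein encoded by Grn. The 14-3-3e KO is a knockout of the adaptor protein 14-3-3 epsilon, encoded by Ywhae, in myeloid cells, and the driver of the deletion is not given in the labels. In every group marrow was cultured for 7 days in 10% serum with 10 ng/ml M-CSF. M1 cells then received 100 ng/ml lipopolysaccharide and 20 ng/ml interferon-gamma, and M2 cells 20 ng/ml interleukin-4, for 18 h. No unstimulated group was analysed here, so a difference between M1 and M2 cells does not say which of the stimuli moved a gene. The labels do not say whether the 3 libraries of a group came from separate mice or cultures, so each p-value measures only the spread between these libraries, which may be technical.

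Fc gamma receptors bind antibody-coated particles and immune complexes. Fcgr1, a high-affinity receptor, and Fcgr3 and Fcgr4, of lower affinity, activate the cell through the immunoreceptor tyrosine-based activation motif (ITAM) of the Fcer1g chain, which is phosphorylated by Src family kinases and recruits the kinase Syk. Fcgr2b carries an inhibitory motif (ITIM) that recruits the lipid phosphatase SHIP1, encoded by Inpp5d, and raises the threshold for activation. In macrophages interferon-gamma is known as an inducer of Fcgr1 and Fcgr4, so the balance between activating receptors and Fcgr2b is commonly used to describe the polarized state.

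Fcgr1 lies on chromosome 3 (chr3:96282909-96293969, minus strand, GRCm38). The other 4 genes lie together on chromosome 1, within 276 kb: Fcgr2b (chr1:170958617-170976547, minus strand), Fcgr4 (chr1:171018920-171029761, plus strand), Fcgr3 (chr1:171051174-171064935, minus strand) and Fcer1g (chr1:171229572-171234365, minus strand). Fcgr3 and Fcgr2b encode closely related extracellular parts, and this bears on how their reads could be told apart. Of the 1733 windows of 50 bases in Fcgr3 exons, 166 (9.58%) were identical to a window of Fcgr2b, where they made up 2.92% of 5685 windows. No other pair of the 5 genes shared such a window. The stretch below, coding in both transcripts and spanning 2 exon blocks in each, holds the longest identical run, of 129 bases; capitals mark the 2 bases that differ, and the sequences are those of the GENCODE M21 transcripts Fcgr3-201 (chr1:171054152-171057807, minus strand) and Fcgr2b-201 (chr1:170966659-170968096, minus strand).
Fcgr3: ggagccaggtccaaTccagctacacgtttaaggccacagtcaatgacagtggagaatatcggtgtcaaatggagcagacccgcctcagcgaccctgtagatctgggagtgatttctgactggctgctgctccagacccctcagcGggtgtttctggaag
Fcgr2b: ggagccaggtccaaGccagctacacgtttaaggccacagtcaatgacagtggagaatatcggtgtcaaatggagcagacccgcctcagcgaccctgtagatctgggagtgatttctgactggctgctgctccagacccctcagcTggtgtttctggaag
Reads that fall wholly inside the identical run could belong to either gene. Whether and how such reads were counted is not known. The split of reads between the activating Fcgr3 and the inhibitory Fcgr2b is uncertain to that extent. Genes that overlap the receptor loci contributed little: the antisense gene Gm38204 in Fcgr2b reached 0.209 CPM (reads per M reads of the library), Gm26110 in Fcgr4 reached 0.104 CPM, and Mir6546 in Fcgr3 had no count in any library.

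The promoters of Fcgr1 and Fcgr4 are shown because these 2 genes differed most between M1 and M2 cells. Each sequence runs from 250 bases before to 50 bases after the RefSeq start site (GRCm38.p6), at chr3:96293920-96294219 on the minus strand for Fcgr1 and chr1:171018676-171018975 on the plus strand for Fcgr4. Capitals mark matches to the motifs searched on both strands: TTC and GAA with any 3 bases between them (the gamma-activated site bound by STAT dimers), TTC and GAA with any 4 bases between them (the spacing preferred by STAT6), GAAA and GAAA with any 2 bases between them (a core of the interferon-stimulated response element), and GAGGAA (an ETS core of the kind bound by PU.1). No match overlapped another.
Fcgr1 promoter: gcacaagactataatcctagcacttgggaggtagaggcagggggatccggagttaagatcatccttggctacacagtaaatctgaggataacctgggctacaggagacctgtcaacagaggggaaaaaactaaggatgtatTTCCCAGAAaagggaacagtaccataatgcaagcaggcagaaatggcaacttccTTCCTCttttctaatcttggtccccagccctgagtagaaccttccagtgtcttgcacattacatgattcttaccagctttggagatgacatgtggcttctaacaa
Fcgr4 promoter: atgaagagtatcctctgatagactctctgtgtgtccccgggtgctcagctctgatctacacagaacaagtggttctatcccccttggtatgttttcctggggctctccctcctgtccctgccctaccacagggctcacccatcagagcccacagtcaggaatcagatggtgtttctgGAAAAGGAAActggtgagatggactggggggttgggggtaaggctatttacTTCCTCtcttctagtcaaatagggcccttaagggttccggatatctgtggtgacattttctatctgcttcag
The Fcgr1 promoter held the gamma-activated site, TTCCCAGAA, at positions -109 to -101 from the start site, and GAGGAA, read on the opposite strand as TTCCTC, at -55 to -50. The Fcgr4 promoter held the response element core, GAAAAGGAAA, at -73 to -64, and TTCCTC at -22 to -17. Fcgr3 had TTCCTC alone, and the windows of Fcgr2b and Fcer1g held none of the 4 motifs. Among all 32851 RefSeq promoters of this length, 8.30% held the gamma-activated site, 6.95% the STAT6 spacing, 3.44% the response element core and 28.3% GAGGAA. These matches describe the letters only, and no binding was measured.

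Depth was 5.16 to 105 M (mega) reads a library, a 20.4-fold range, and 1 read was worth 4.46 normalized counts in the shallowest. Transcripts of ribosomal RNA type made up 14.3% of reads in WT M2 replicate 3, 1.85% in WT M1 replicate 2 and at most 0.208% elsewhere. Grn had 497, 212 and 232 normalized counts in PGRN KO M1, against 81989 to 91739 in WT M1, and 24.4, 23.9 and 32.2 in PGRN KO M2, against 29365 to 34556 in WT M2. It had 66328 to 69903 normalized counts in 14-3-3e KO M1 and 26102 to 27845 in 14-3-3e KO M2. Ywhae had 6214, 5191 and 5537 normalized counts in 14-3-3e KO M1, against 9859, 9021 and 9034 in WT M1 (1.65-fold lower), and 5088, 4362 and 5131 in 14-3-3e KO M2, against 9015, 8203 and 8999 in WT M2 (1.80-fold lower). The 14-3-3e KO libraries therefore kept more than a trace of Ywhae mRNA. The labels do not name the deleted exons, and reads outside them would remain. The source of the remaining Ywhae mRNA was not tested. The 7 macrophage markers tested, among them Csf1r, Cd68, Itgam, Mertk, Lyz2 and Cd14, had reads in all 6 groups. Each of the 11 stromal markers tested, among them Col1a1, Col1a2 and Sparc, also had reads in all 6 groups, and their summed level is given beside the knockout results. In bulk RNA, fewer cells of a type and less RNA per cell cannot be told apart.

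Fcgr1, the high-affinity receptor, had 30711, 27518 and 27943 normalized counts in PGRN KO M1, 15072, 16638 and 13626 in 14-3-3e KO M1, and 22189, 20031 and 22344 in WT M1. Its M2 values were 431, 463 and 486 in PGRN KO, 365, 456 and 292 in 14-3-3e KO, and 434, 441 and 438 in WT. In all 3 genotypes every M1 library lay far above every M2 library. The 3 groups of M1 cells did not overlap with each other, in the order PGRN KO, WT, 14-3-3e KO, whereas the 3 groups of M2 cells overlapped. The fold of M1 over M2 was 62.3 in PGRN KO (log2 fold change 5.96, SE 0.12, adjusted p = 1.17e-15), 41.2 in 14-3-3e KO (5.36, adjusted p = 5.92e-15) and 49.0 in WT (5.61, adjusted p = 2.22e-15), by limma with Benjamini-Hochberg adjustment over all 21336 genes tested.

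Fcgr4, an activating receptor for IgG2a and IgG2b, had 11741, 13653 and 11549 normalized counts in PGRN KO M1, 5585, 5905 and 4425 in 14-3-3e KO M1, and 12392, 10497 and 10756 in WT M1. Its M2 values were 1167, 1337 and 1174 in PGRN KO, 310, 227 and 170 in 14-3-3e KO, and 355, 275 and 296 in WT. The PGRN KO M2 libraries stood above all other M2 libraries and below all M1 libraries, while the 14-3-3e KO M1 libraries stood below the other M1 libraries. PGRN KO M1 overlapped with WT M1, and 14-3-3e KO M2 with WT M2. The M1 over M2 fold was 10.0 in PGRN KO (log2 3.33, SE 0.17, adjusted p = 8.30e-11), 22.9 in 14-3-3e KO (4.52, adjusted p = 1.71e-12) and 36.3 in WT (5.18, adjusted p = 2.47e-13).

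Fcgr3, a low-affinity activating receptor, was the one member lower in M1 cells of all 3 genotypes. It had 8769, 9213 and 8139 normalized counts in PGRN KO M1, 6121, 5399 and 4798 in 14-3-3e KO M1, and 5137, 5238 and 7010 in WT M1. Its M2 values were 12046, 10789 and 11680 in PGRN KO, 8739, 8606 and 7708 in 14-3-3e KO, and 8563, 8964 and 9050.5 in WT. No M1 library reached an M2 library of its own genotype. Across genotypes the PGRN KO M1 libraries overlapped with 14-3-3e KO M2 and WT M2. Fcgr3 changed by a log2 of -0.40 in PGRN KO (SE 0.11, adjusted p = 7.88e-03), -0.62 in 14-3-3e KO (adjusted p = 2.87e-04) and -0.63 in WT (adjusted p = 2.07e-04).

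Fcgr2b, the inhibitory receptor, varied least, by 1.64-fold between its highest and lowest group mean. It had 9203, 10065 and 9965 normalized counts in PGRN KO M1, 7636, 6634 and 5849 in 14-3-3e KO M1, and 8361, 9811 and 9339 in WT M1. Its M2 values were 10231, 10456 and 10629 in PGRN KO, 7567, 6236 and 6785 in 14-3-3e KO, and 5366, 6579 and 7164 in WT. PGRN KO M2 was the highest of the 6 groups, and 14-3-3e KO M2, 14-3-3e KO M1 and WT M2 were the lowest and overlapped. WT cells were the genotype in which Fcgr2b rose in M1, 1.45-fold (log2 0.53, SE 0.11, adjusted p = 9.55e-04). The difference was -0.10 in PGRN KO (adjusted p = 0.547), where the M1 and M2 libraries did not overlap, and -0.04 in 14-3-3e KO (adjusted p = 0.866, 95% CI -0.27 to 0.20), where they did.

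Fcer1g, the shared ITAM chain, had 32293, 31298 and 32439 normalized counts in PGRN KO M1, 25665, 23599 and 21001 in 14-3-3e KO M1, and 33725, 29019 and 31935 in WT M1. Its M2 values were 8955, 8539 and 8707 in PGRN KO, 6103, 6514 and 5922 in 14-3-3e KO, and 7194, 6547 and 6931 in WT. The groups of M2 cells were apart from each other, in the order PGRN KO, WT, 14-3-3e KO, and among M1 cells only the 14-3-3e KO libraries were separate. Its log2 M1 over M2 change was 1.87 in PGRN KO (SE 0.08, adjusted p = 5.19e-12), 1.92 in 14-3-3e KO (adjusted p = 4.00e-12) and 2.19 in WT (4.57-fold, adjusted p = 5.50e-13).

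Counted over the 5 genes, 3 were higher, 1 was lower and 1 was not called in M1 over M2 of PGRN KO cells, where 37.5% of all genes tested were called, 18% higher and 19.5% lower. The same counts held in 14-3-3e KO cells, where 30% of all genes were called, 15.6% higher and 14.4% lower. M1 and M2 libraries did not overlap for 5 of the genes in PGRN KO, 4 in 14-3-3e KO and 5 in WT, beside 51.3% of all genes in PGRN KO, 49.3% in 14-3-3e KO and 40.2% in WT. In WT cells 4 were higher and 1 was lower, against 38.9% of all genes called, 18.9% higher and 20% lower. With library totals in place of the authors' scaling the Fcgr2b difference in PGRN KO cells passed the threshold, at -0.32, and the split of all calls moved from 48.1% to 30.0% higher in PGRN KO, from 52.0% to 29.9% in 14-3-3e KO and from 48.5% to 34.2% in WT. Under that scaling the median log2 change of all genes moved by -0.18 in PGRN KO, -0.19 in 14-3-3e KO and -0.16 in WT cells. These shifts are small beside the changes of Fcgr1, Fcgr4 and Fcer1g, but not beside those of Fcgr3 and Fcgr2b. Over 15 alternatives Fcgr3 ranged between -0.62 and -0.35 in PGRN KO, and Fcgr2b between 0.36 and 0.62 in WT. Both were called in each. Markers moved between the states as well. Of 7 macrophage markers, 3 were higher and none lower in M1 than in M2 of PGRN KO cells, 4 higher and 2 lower in 14-3-3e KO cells, and 4 higher and 1 lower in WT cells. Of 11 stromal markers, 3 were higher and 1 lower in PGRN KO cells, and 5 were higher and 1 lower in 14-3-3e KO and in WT cells. The ranges of both sums are given with the knockout results, and their part in the M1 over M2 differences was not tested.

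**Figure D1:**
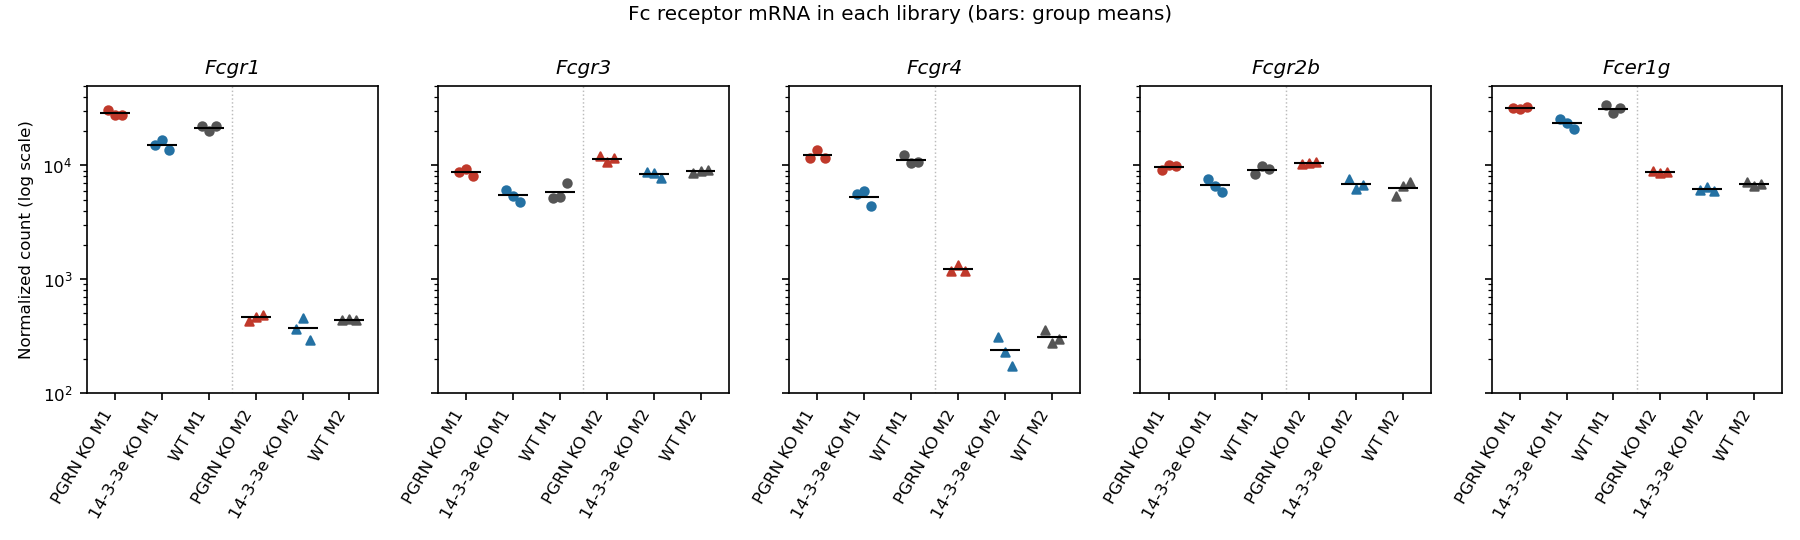
Normalized counts (log axis) of Fcgr1, Fcgr3, Fcgr4, Fcgr2b and Fcer1g in each of the 18 libraries; circles are M1 and triangles M2 libraries, and bars are group means. Fcgr1 spans 77.5-fold and Fcgr4 52.2-fold between the highest and lowest group mean, against 5.18-fold for Fcer1g, 2.12-fold for Fcgr3 and 1.64-fold for Fcgr2b, and Fcgr4 in PGRN KO M2 stands apart from the other M2 groups.

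Loss of progranulin went with higher mRNA of Fcgr3 and Fcgr1 in M1 cells and of Fcgr4, Fcgr2b, Fcgr3 and Fcer1g in M2 cells. In M1 cells PGRN KO libraries had 1.52-fold more Fcgr3 than WT (log2 0.60, SE 0.11, adjusted p = 8.39e-04) and 1.33-fold more Fcgr1 (log2 0.42, SE 0.12, adjusted p = 0.0174), and the libraries of the 2 groups did not overlap for either gene. These 2 of 5 members were called higher and none lower, beside 25.3% of all genes called, 14.2% higher and 11.1% lower, and 31.8% with libraries that did not overlap. Fcgr4 differed by a log2 of 0.13 (adjusted p = 0.614, 95% CI -0.22 to 0.49). Fcgr2b differed by 0.09 (adjusted p = 0.611, 95% CI -0.15 to 0.33) and Fcer1g by 0.02 (adjusted p = 0.878, 95% CI -0.14 to 0.19), and both were slightly below 0 with library totals as the scaling. The call of Fcgr1 did not hold with library totals (0.32, adjusted p = 0.0832), without WT M1 replicate 2 and WT M2 replicate 3 (0.37, adjusted p = 0.0571) or without PGRN KO M1 replicate 1 (0.37, adjusted p = 0.0755). With library totals 39.4% of all calls were higher in PGRN KO M1, against 56.3% with the authors' scaling.

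In M2 cells 4 of the 5 genes were higher in PGRN KO than in WT and did not overlap with it, beside 19.4% of all genes called, 11.1% higher and 8.3% lower, and 39.1% without overlap. Fcgr4 was 3.98-fold higher (log2 1.99, SE 0.17, 95% CI 1.63 to 2.35, adjusted p = 1.23e-06). It was called in each of 15 alternative settings, where its log2 change ranged between 1.91 and 2.10. Fcgr2b was 1.65-fold higher (0.72, SE 0.11, adjusted p = 2.51e-04), Fcgr3 1.298-fold higher (0.38, adjusted p = 0.0240) and Fcer1g 1.27-fold higher (0.34, SE 0.08, adjusted p = 5.21e-03). Fcgr1 differed by 0.07 (adjusted p = 0.759, 95% CI -0.18 to 0.32). The activating Fcgr3 and Fcgr4, the inhibitory Fcgr2b and the shared chain were all higher in PGRN KO M2 cells, and the high-affinity receptor was not called. The call of Fcgr3 did not hold with library totals (0.33, adjusted p = 0.0608), nor without PGRN KO M2 replicate 1 or 3 or WT M2 replicate 1 (0.34 to 0.36, adjusted p between 0.0777 and 0.0896). With library totals 47.3% of all calls were higher in PGRN KO M2, against 57.2%.

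The difference between the PGRN KO effects in M1 and M2 cells was tested as an interaction. It was called for Fcgr4 alone among the members, at a log2 of -1.86 (SE 0.24, 95% CI -2.36 to -1.35, adjusted p = 1.20e-03), beside 1.25% of all genes called, 0.469% higher and 0.783% lower. The Fcgr4 value stayed past the threshold in 21 of 21 alternatives, with an adjusted p of at most 0.0162. For Fcgr2b the difference was -0.63 (SE 0.16, adjusted p = 0.0618), which passed the threshold with library totals (-0.68), with only genes of at least 5 CPM tested (adjusted p = 0.0432) and without WT M1 replicate 1 or WT M2 replicate 3. Fcer1g (-0.32, adjusted p = 0.190), Fcgr1 (0.35, adjusted p = 0.391) and Fcgr3 (0.22, adjusted p = 0.590) were not called.

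Macrophage and stromal markers moved with the PGRN KO groups. Of the 7 macrophage markers tested, 4 were higher and 1 lower in PGRN KO M1 than in WT M1, and 4 were higher in PGRN KO M2 than in WT M2. Their summed level was 16113 to 19069 CPM in PGRN KO M1, against 9486 to 16396 in WT M1, and 13731 to 15192 in PGRN KO M2, against 6553 to 6801 in WT M2. The 11 stromal markers summed to 13196 to 15344 CPM in PGRN KO M1, against 17057 to 29297 in WT M1, and to 12246 to 16083 in PGRN KO M2, against 17964 to 28219 in WT M2. Of these 11, 4 were lower and none higher in PGRN KO M1 than in WT M1. In PGRN KO M2 5 were lower than in WT M2 and 1 was higher, Pdgfra, a growth factor receptor of fibroblasts (log2 0.53, adjusted p = 0.0141). The part of these markers in the receptor differences was not tested.

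**Figure D2:**
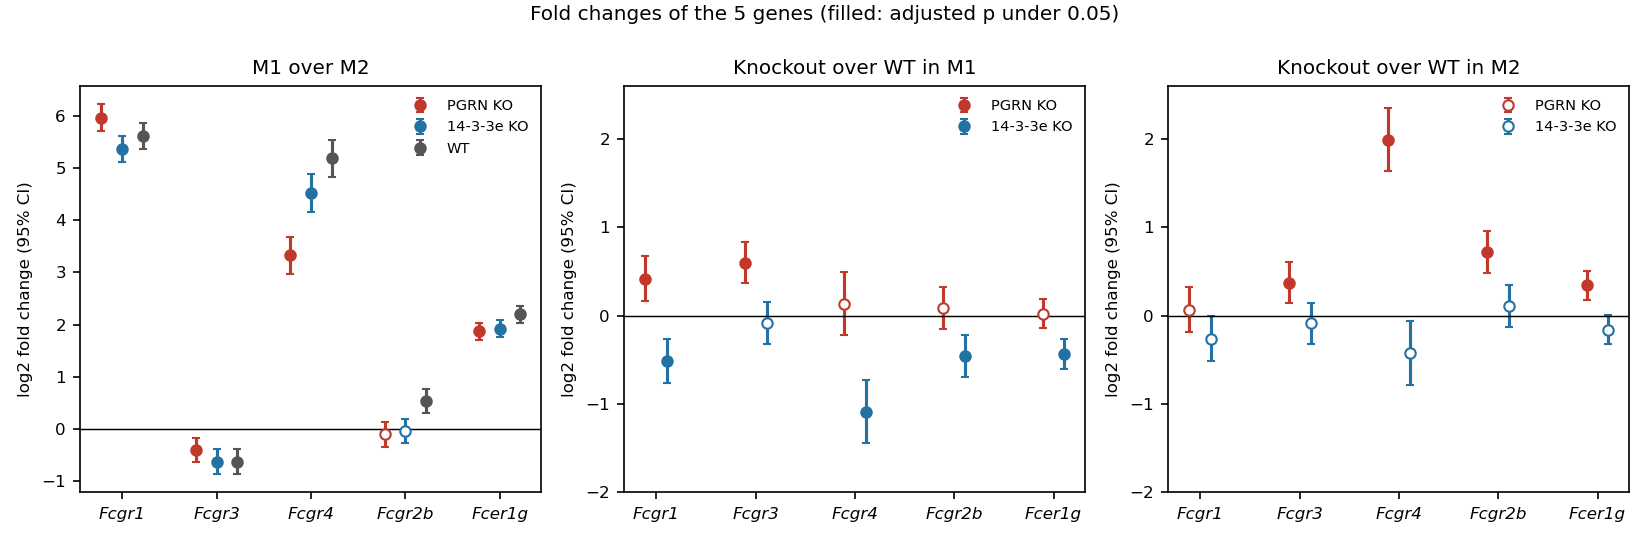
Log2 fold changes with 95% confidence intervals of the 5 genes for M1 over M2 within each genotype and for each knockout over WT in M1 and in M2 (left to right, note the different vertical scales); filled points have an adjusted p under 0.05. Fcgr4 is the highest point of the M2 panel, at 1.99 in PGRN KO, and the lowest of the M1 panel, at -1.09 in 14-3-3e KO.

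Loss of 14-3-3e in M1 cells went with lower mRNA of 4 of the 5 genes, beside 21.3% of all genes called, 12% higher and 9.31% lower. Fcgr4 was 2.12-fold lower than in WT (log2 -1.09, SE 0.17, adjusted p = 6.63e-04). Fcgr1 was 1.43-fold lower (-0.51, SE 0.12, adjusted p = 8.20e-03), Fcgr2b 1.37-fold lower (-0.46, SE 0.11, adjusted p = 0.0102) and Fcer1g 1.35-fold lower (-0.43, SE 0.08, adjusted p = 1.85e-03). For each of the 4 genes every 14-3-3e KO M1 library was below every WT M1 library, beside 32.8% of all genes without overlap. Fcgr3 differed by -0.08 (adjusted p = 0.635, 95% CI -0.32 to 0.15), and its libraries overlapped. When only the 2 groups compared were fitted, Fcgr4 kept its call, and Fcgr1 (adjusted p = 0.0673), Fcgr2b (adjusted p = 0.105) and Fcer1g (adjusted p = 0.0975) did not. With library totals 71.0% of all calls were higher in 14-3-3e KO M1, against 56.2% with the authors' scaling, and with precision weights (voom) 42.3%.

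In M2 cells none of the 5 genes was called between 14-3-3e KO and WT by limma, beside 6.69% of all genes, 3.32% higher and 3.37% lower. The log2 differences were -0.42 for Fcgr4 (adjusted p = 0.145, unadjusted p = 0.0239), -0.26 for Fcgr1 (adjusted p = 0.199, unadjusted p = 0.0436), -0.16 for Fcer1g (adjusted p = 0.241, unadjusted p = 0.0617), -0.09 for Fcgr3 (adjusted p = 0.699) and 0.11 for Fcgr2b (adjusted p = 0.599). At an unadjusted threshold, Fcgr4 and Fcgr1 would have been the 2 called, both lower, and only Fcer1g had libraries that did not overlap between the groups, beside 31.6% of all genes. Leaving out 1 library brought a call for Fcgr4 (-0.64, adjusted p = 0.0312, without 14-3-3e KO M2 replicate 1) or Fcgr1 (-0.42, adjusted p = 0.0382, without 14-3-3e KO M2 replicate 2). With library totals 79.1% of all calls were higher in 14-3-3e KO M2, against 49.7%. The interaction between the 14-3-3e KO effects in M1 and M2 was called for no member, beside 0.286% of all genes, 0.141% higher and 0.145% lower. It was -0.67 for Fcgr4 (adjusted p = 0.324, unadjusted p = 0.0132), -0.57 for Fcgr2b (adjusted p = 0.182, unadjusted p = 0.00223) and -0.28 for Fcer1g (adjusted p = 0.389, unadjusted p = 0.0243). These 3 had an unadjusted p under 0.05, and Fcgr1 (-0.25) and Fcgr3 (0.00) did not. An effect called in M1 and not in M2 is therefore not shown to differ between them for any receptor.

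The marker sums moved here too. In 14-3-3e KO M1 cells 3 of 7 macrophage markers were lower and 1 was higher than in WT M1, and their sum was 5012 to 9072 CPM, against 9486 to 16396 in WT M1. In 14-3-3e KO M2 cells 1 of 7, Lyz2, was lower, and the sum was 3340 to 4282 CPM, against 6553 to 6801 in WT M2. Lyz2, a lysozyme gene, made up most of this sum in WT cells but not in 14-3-3e KO M2. It was at 1521 to 5828 CPM in 14-3-3e KO M1, against 7519 to 13287 in WT M1. In M2 cells Lyz2 was at 469 to 1603 CPM in 14-3-3e KO, against 4058 to 4372 in WT. Of 11 stromal markers, 5 were higher in 14-3-3e KO M1 than in WT M1 and 2 in 14-3-3e KO M2 than in WT M2. Their sum was 31095 to 37953 CPM in 14-3-3e KO M1, against 17057 to 29297 in WT M1, and 28114 to 35789 in 14-3-3e KO M2, against 17964 to 28219 in WT M2. The part of these markers in the receptor differences was not tested. Both knockouts were set against the same WT libraries, so their effects are not independent of each other.

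Set against each other, which uses no WT library in the difference, the knockouts differed in all 5 genes in M1 cells. Every one was lower in 14-3-3e KO than in PGRN KO, beside 25% of all genes called, 12.5% higher and 12.5% lower. The log2 differences were -1.22 for Fcgr4 (SE 0.17, adjusted p = 4.61e-05), -0.93 for Fcgr1 (SE 0.12, adjusted p = 2.22e-05), -0.68 for Fcgr3 (adjusted p = 1.95e-04), -0.55 for Fcgr2b (adjusted p = 1.46e-03) and -0.46 for Fcer1g (adjusted p = 3.41e-04). All 5 were called in each of 15 alternatives, and the libraries of the 2 knockouts overlapped for none of them, beside 43.3% of all genes without overlap. In M2 cells 4 were lower in 14-3-3e KO, beside 18.2% of all genes called, 8.29% higher and 9.92% lower, and the libraries of these 4 did not overlap, beside 39.5% of all genes. Fcgr4 was 5.33-fold lower (-2.41, adjusted p = 7.47e-08), Fcgr2b changed by -0.61 (adjusted p = 8.02e-04), Fcer1g by -0.50 (adjusted p = 2.04e-04) and Fcgr3 by -0.46 (adjusted p = 6.50e-03). Fcgr1 differed by -0.33 (adjusted p = 0.0679), and passed the threshold with only genes of at least 5 CPM tested (adjusted p = 0.0456) or without 14-3-3e KO M2 replicate 2 (-0.49, adjusted p = 4.05e-03). The call of Fcgr3 in M2 did not hold with library totals (-0.29, adjusted p = 0.0980), under which 70.2% of all calls were higher in 14-3-3e KO, against 45.5%; in M1 the shares were 73.3% and 50.1%. Macrophage markers were lower in 14-3-3e KO than in PGRN KO for 4 of 7 in M1 and 4 of 7 in M2, with 1 higher in M1, and stromal markers were higher for 8 of 11 in M1 and 7 of 11 in M2.

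To describe the balance, normalized counts were divided by the merged exon length of each gene, and the sum of Fcgr1, Fcgr3 and Fcgr4 was divided by Fcgr2b in each library. The ratio was 16.5, 15.4 and 14.3 in PGRN KO M1, 10.5, 12.4 and 11.4 in 14-3-3e KO M1, and 14.8, 11.3 and 13.2 in WT M1. In M2 cells it was 4.55, 4.13 and 4.28 in PGRN KO, 4.15, 4.93 and 4.001 in 14-3-3e KO, and 5.81, 4.89 and 4.54 in WT. Every M1 library had a higher ratio than every M2 library, by 3.57-fold in PGRN KO, 2.63-fold in 14-3-3e KO and 2.57-fold in WT. On this length each knockout overlapped with WT in both states, narrowly so for PGRN KO M2 (highest 4.55, against a lowest of 4.54 in WT M2). The 2 knockouts did not overlap in M1, where the ratio was 1.35-fold lower in 14-3-3e KO than in PGRN KO, and overlapped in M2. These ratios are a description over the members and carry no test.

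The ratio depends on the length taken for Fcgr2b, whose merged exons span 5790 bases while its coding transcripts have a median length of 1520. With the median coding transcript length of each gene the group means were 4.29 in PGRN KO M1, 3.22 in 14-3-3e KO M1, 3.61 in WT M1, 1.43 in PGRN KO M2, 1.48 in 14-3-3e KO M2 and 1.72 in WT M2. The order of M1 over M2 was the same with either length, and the size of the ratio was not. The overlap of PGRN KO with WT also depended on the length. With median coding transcript lengths every PGRN KO M2 library was below every WT M2 library, and the M1 libraries overlapped. Without lengths PGRN KO was apart from WT in both states, above it in M1 and below it in M2. The 14-3-3e KO libraries overlapped with WT in each case.

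The make-up of the 4 receptors was described in the same way, and it too depends on the length taken. Per kb of merged exon, Fcgr1 made up 40.2% of the 4 receptors in PGRN KO M1, 40.7% in 14-3-3e KO M1 and 37.5% in WT M1, and 1.85% in PGRN KO M2, 2.26% in 14-3-3e KO M2 and 2.56% in WT M2. Fcgr4 made up 35.5% in PGRN KO M1, 29.3% in 14-3-3e KO M1 and 40.3% in WT M1, and 10.2% in PGRN KO M2, 2.94% in 14-3-3e KO M2 and 3.73% in WT M2. Fcgr3 was the main receptor of M2 cells, at 69.1% in PGRN KO, 76.0% in 14-3-3e KO and 77.1% in WT, and made up 18.2% in PGRN KO, 21.9% in 14-3-3e KO and 15.04% in WT M1 cells. On the merged length its M1 share was below those of Fcgr1 and Fcgr4 in each genotype. With median coding transcript lengths Fcgr3 and Fcgr4 were close in 14-3-3e KO M1 (22.1% and 22.7%), and without lengths Fcgr3 was above Fcgr4 there (16.7% and 16.2%). Fcgr2b was 6.11% in PGRN KO M1, 8.07% in 14-3-3e KO M1 and 7.18% in WT M1, and 18.8% in PGRN KO M2, 18.8% in 14-3-3e KO M2 and 16.6% in WT M2. With median coding transcript lengths the inhibitory receptor had a much larger share, of 18.9% in PGRN KO M1, 23.7% in 14-3-3e KO M1 and 21.9% in WT M1, and of 41.1% in PGRN KO M2, 40.5% in 14-3-3e KO M2 and 37.0% in WT M2. On either length its share was higher in M2 than in M1 of each genotype, and Fcgr3 had the highest share in M2 cells.

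Taken one receptor at a time per kb of merged exon, some ratios to Fcgr2b were apart between a knockout and WT and others overlapped. Fcgr4 over Fcgr2b averaged 0.541 in PGRN KO M2, 0.157 in 14-3-3e KO M2 and 0.229 in WT M2, with no overlap between either knockout and WT. Fcgr3 over Fcgr2b averaged 3.68 in PGRN KO M2, below and apart from WT M2 at 4.69, and 4.08 in 14-3-3e KO M2, which overlapped with WT. Fcgr1 over Fcgr2b averaged 0.0985 in PGRN KO M2, 0.122 in 14-3-3e KO M2 and 0.156 in WT M2, with PGRN KO apart from WT and 14-3-3e KO overlapping with it. In PGRN KO M2 cells a higher Fcgr4 ratio and lower Fcgr3 and Fcgr1 ratios thus stood together in a sum that overlapped with WT on this length alone. In M1 cells Fcgr3 over Fcgr2b was 2.99 in PGRN KO and 2.71 in 14-3-3e KO, both apart from and above WT at 2.11, and Fcgr4 over Fcgr2b was 5.83 in PGRN KO, which overlapped with WT at 5.69, and 3.65 in 14-3-3e KO, apart from and below it. Fcgr1 over Fcgr2b was 6.62 in PGRN KO M1, apart from and above WT M1 at 5.28, and 5.08 in 14-3-3e KO M1, which overlapped with WT M1. Fcer1g over the activating sum averaged 1.42 in PGRN KO M1, 2.04 in 14-3-3e KO M1 and 1.75 in WT M1. In M2 cells it averaged 1.28 in PGRN KO, 1.38 in 14-3-3e KO and 1.43 in WT. PGRN KO was apart from and below WT in both states. The 14-3-3e KO libraries were apart from and above WT in M1 and overlapped with it in M2.

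**Figure D3:**
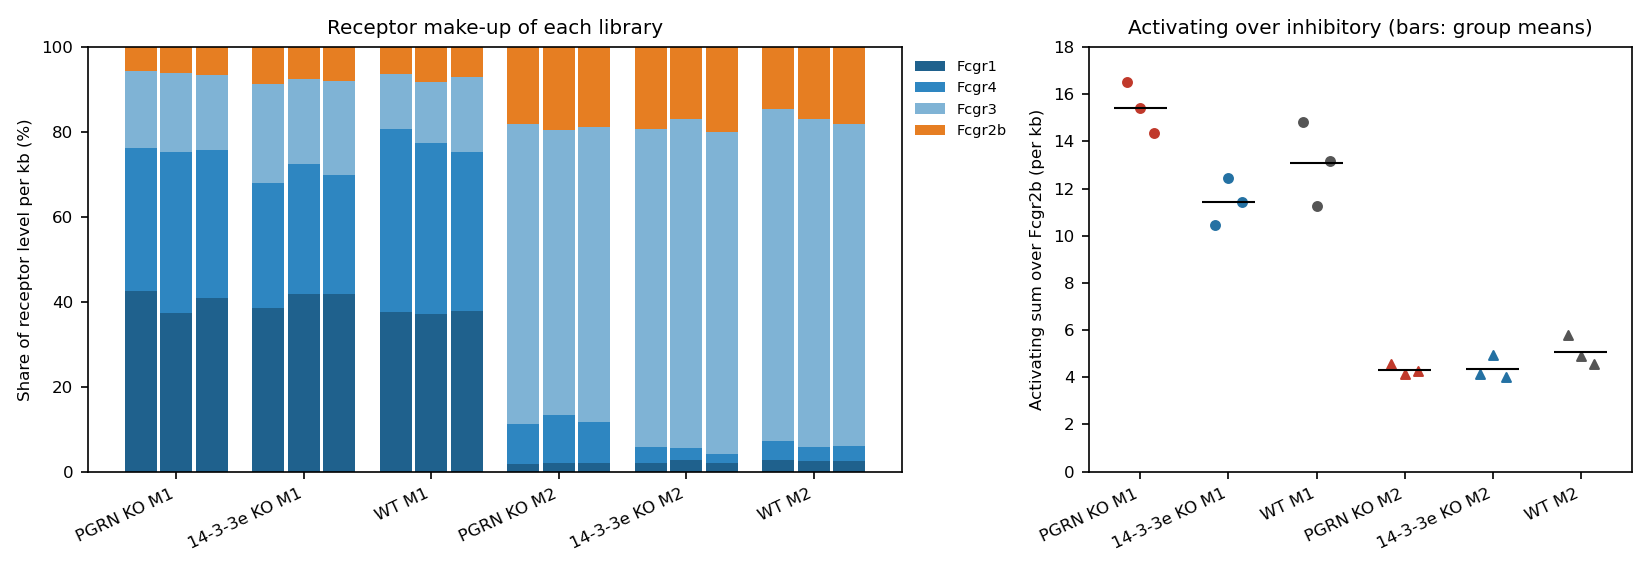
Left, the share (%) of Fcgr1, Fcgr4, Fcgr3 and Fcgr2b in their summed level per kb of merged exon in each library, 1 column a library; right, the activating sum over Fcgr2b in each library, with bars for group means. M1 ratios lie between 10.5 and 16.5 and M2 ratios between 4.001 and 5.81, and the Fcgr4 share of PGRN KO M2 (10.2%) exceeds that of the other M2 groups.

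Genes that act with the receptors were read from 6 lists. Macrophage and stromal markers moved in the same comparisons, as given above, and their part in the list counts was not tested. Among 30 genes of ITAM kinases and proximal signalling, 19 were higher and none lower in PGRN KO M1 than in WT M1, beside 14.2% of all genes higher and 11.1% lower, with a list median of 0.38 beside 0.01 over all genes. In M2 cells 16 were higher and none lower, beside 11.1% and 8.3% of all genes, with a median of 0.48 beside 0.00. In M1 these included Pik3cb, a catalytic subunit of phosphoinositide 3-kinase (log2 1.06, adjusted p = 2.16e-07), Blnk, an adaptor phosphorylated by Syk (1.06, adjusted p = 5.26e-06), and Vav2, an exchange factor for small GTPases (0.80, adjusted p = 7.93e-06). In M2 they included Prkcb, a protein kinase C (1.57, adjusted p = 1.68e-06), Syk itself, at 7222 normalized counts in PGRN KO M2 against 3639 in WT M2 (0.99, adjusted p = 1.07e-05), and Vav2 (0.75, adjusted p = 1.73e-05). The M1 count was 13 higher and 1 lower with library totals, beside 1814 higher and 2792 lower of all 21336 genes. It was 10 higher with only the groups compared, beside 2134 of all genes called. In 14-3-3e KO cells 7 were higher and 5 lower than in WT in M1, beside 12% and 9.31% of all genes, and 1 was higher and 3 lower in M2, beside 3.32% and 3.37%. The Src family kinase Fgr rose in both, by 0.79 in M1 cells with an adjusted p of 3.27e-03 and by 1.52 in M2 cells with one of 2.002e-05, and the adaptors Blnk (-0.58 and -0.57) and Lat2 (-0.58 and -0.52) fell in both. With only the groups compared, the 14-3-3e KO M1 count was 1 higher and 1 lower, beside 385 of all 21336 genes called.

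Downstream, 15 of 26 tested genes of phagocytosis and the NADPH oxidase were higher in PGRN KO M1 than in WT M1 and none lower (14.2% higher and 11.1% lower over all genes; median 0.34 beside 0.01). In PGRN KO M2 11 were higher and 2 lower than in WT M2 (11.1% and 8.3% over all genes; median 0.30). Cybb, the catalytic subunit of the phagocyte oxidase, was at 31754 normalized counts in PGRN KO M1 against 14251 in WT M1 (1.18, adjusted p = 2.19e-04), and rose by 1.02 in M2 (adjusted p = 9.27e-04). The motor protein gene Myo1f rose by 0.93 (M1, adjusted p = 4.43e-05) and 0.78 (M2, adjusted p = 2.76e-04). The M1 count was 9 with library totals, beside 1814 higher and 2792 lower of all 21336 genes. It was 4 with only the groups compared, beside 2134 of all genes called. In 14-3-3e KO M1 cells 6 were higher and 2 lower than in WT M1, beside 12% and 9.31% of all genes, among them Cybb (0.73, adjusted p = 0.0116) and Ncf4, a cytosolic oxidase subunit (0.53, adjusted p = 0.0126), upward, and Cyba, the partner subunit of Cybb (-0.56, adjusted p = 0.0257), downward. In M2 the count was 2 higher and none lower, beside 3.32% and 3.37%. With only the groups compared none was called in 14-3-3e KO M1, beside 385 of all 21336 genes (by limma, as were all counts here).

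On the inhibitory side, 6 of 14 genes of ITIM signalling were higher and 1 lower in PGRN KO M1 than in WT M1 (14.2% higher and 11.1% lower over all genes; median 0.21 beside 0.01), and 5 were higher and 1 lower in M2 (11.1% and 8.3% over all genes; median 0.08 beside 0.00). With library totals the counts were 4 higher and 2 lower in M1, and 4 higher and 1 lower in M2. Of all 21336 genes, 1814 were then higher and 2792 lower in M1, and 1736 and 1938 in M2. Inpp5d, the SHIP1 phosphatase that Fcgr2b recruits, rose by 0.53 in M1, at 5923 normalized counts in PGRN KO against 4115 in WT (adjusted p = 1.33e-03), and by 0.42 in M2 (adjusted p = 8.07e-03). Dok2, an adaptor that restrains Ras signalling, fell by 0.30 on the log2 scale in M1 (adjusted p = 0.0467) and by 0.61 in M2 (adjusted p = 6.82e-04). In 14-3-3e KO M1 cells 7 were higher and 1 lower, beside 12% and 9.31% of all genes, with Ptpn11, the phosphatase SHP2, at 0.70 (adjusted p = 6.01e-04), and in M2 cells 1 was higher, beside 3.32%. With only the groups compared the M1 counts were 3 higher in PGRN KO and none called in 14-3-3e KO. Of all 21336 genes, 2134 and 385 were then called.

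Of the other receptors that pair with the Fcer1g chain, 7 of 8 rose in M1 over M2 in WT cells, beside 18.9% of all genes (median 2.80 beside -0.04), as Fcer1g itself did. Clec4e (Mincle), a receptor for glycolipids, had 4279 normalized counts in WT M1 against 15.3 in WT M2 (log2 8.03, adjusted p = 1.17e-15). It was higher still in PGRN KO M1 (0.90, adjusted p = 4.51e-04) and in 14-3-3e KO M1 (0.56, adjusted p = 0.0168) than in WT M1. In PGRN KO over WT 3 were higher and 1 lower in M1 (14.2% and 11.1% of all genes), and 2 were higher and 1 lower in M2 (11.1% and 8.3%), with Pira2, an activating receptor of the leukocyte receptor complex, at 0.998 (M1, adjusted p = 6.35e-03) and 1.76 (M2, adjusted p = 1.06e-04). In 14-3-3e KO over WT 1 was higher and 1 lower in each state, beside 12% and 9.31% of all genes in M1 and 3.32% and 3.37% in M2. Clec4e mRNA and Fcer1g mRNA thus moved in opposite directions in 14-3-3e KO M1 cells.

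Of 9 transcription factors linked to Fc receptor genes, 7 were higher in WT M1 than in WT M2 and none lower, beside 18.9% and 20% of all genes (median 0.80 beside -0.04). In PGRN KO cells 3 were higher than in WT in each state, beside 14.2% of all genes in M1 and 11.1% in M2, among them Irf8 (0.82 in M1 and 0.72 in M2) and Stat6 (0.51 in M1 and 0.50 in M2). In 14-3-3e KO M1 cells 2 were higher and 3 lower, beside 12% and 9.31% of all genes (median 0.03 beside 0.07). Spi1, which encodes PU.1, was at 7588 normalized counts in 14-3-3e KO M1 against 9773 in WT M1 (-0.36, adjusted p = 0.0145), and Cebpb at 1639 against 3393 (-1.003, adjusted p = 1.19e-03). In 14-3-3e KO M2 cells 1 was higher and 2 were lower, beside 3.32% and 3.37% of all genes (median 0.00 beside 0.00). The lower ones were Spi1 (-0.39, adjusted p = 0.0227) and Cebpb (-0.96, adjusted p = 3.07e-03). With only the groups compared none was called in 14-3-3e KO M1, beside 385 of all 21336 genes. Binding of these factors was not measured.

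**Figure D4:**
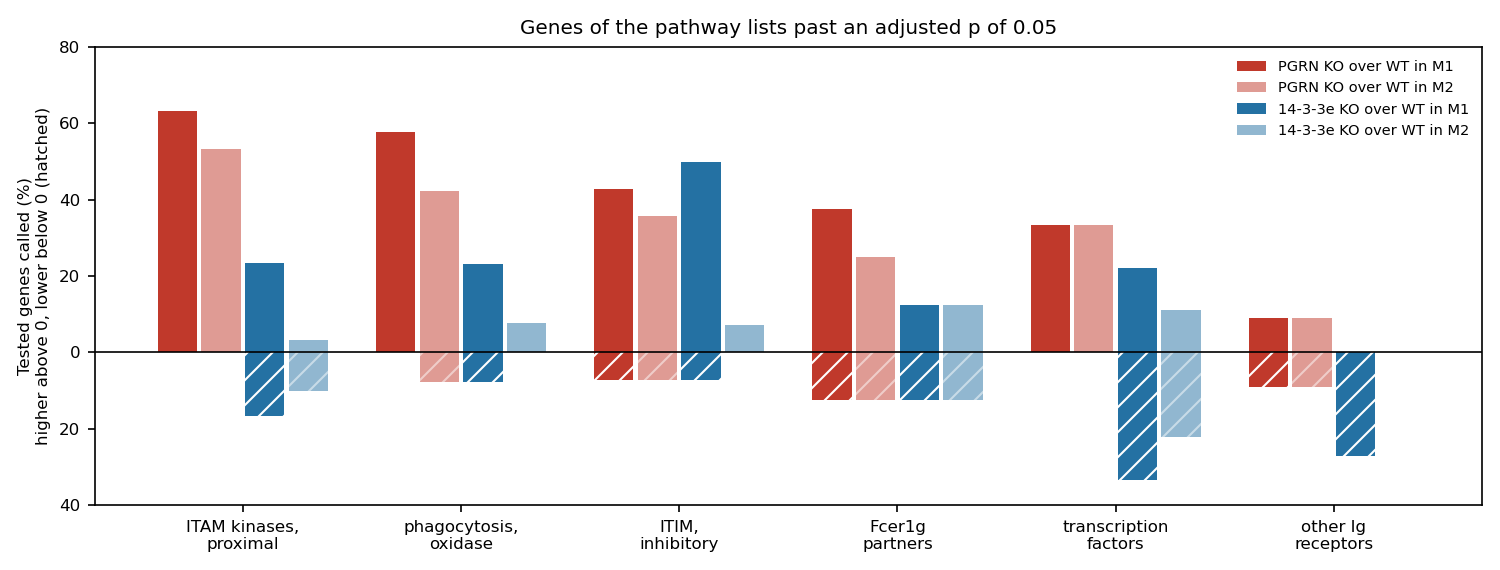
Share (%) of the tested genes of each list past an adjusted p of 0.05, higher above and lower (hatched) below the zero line, for each knockout over WT in M1 and M2. In the ITAM list 19 of 30 genes are higher in PGRN KO M1 and 16 in PGRN KO M2, and none is lower. In 14-3-3e KO 7 are higher and 5 lower in M1, and 1 is higher and 3 lower in M2. Among 9 transcription factors 2 are higher and 3 lower in 14-3-3e KO M1. Over all genes 14.2% are higher and 11.1% lower in PGRN KO M1, and 11.1% and 8.3% in PGRN KO M2. For 14-3-3e KO the shares are 12% and 9.31% in M1, and 3.32% and 3.37% in M2.

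Receptors of other immunoglobulin classes and intracellular antibody receptors formed the last list. Of 11 tested, 1 was higher and 1 lower in PGRN KO than in WT in each state, where 25.3% of all genes were called in M1 and 19.4% in M2. Trim21, a cytosolic antibody receptor, rose by 0.35 (M1, adjusted p = 0.0289) and 0.42 (M2, adjusted p = 0.0126). Fcgrt, the neonatal Fc receptor that recycles IgG, was at 2937 normalized counts in PGRN KO M1 against 5088 in WT M1 (-0.79, adjusted p = 1.60e-03), and changed by -0.52 in M2 (adjusted p = 0.0284). It was lower in 14-3-3e KO M1 as well (-0.64, adjusted p = 0.0106), with 3 of the 11 lower there beside 9.31% of all genes, and none was called in 14-3-3e KO M2.

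Across the 18 libraries the log2 levels of Fcgr1, Fcgr4 and Fcer1g ran together, with Pearson's r of 0.989 for Fcgr1 and Fcer1g, 0.980 for Fcgr4 and Fcer1g and 0.949 for Fcgr1 and Fcgr4. Fcgr3 ran against them (-0.633 with Fcgr1, -0.571 with Fcer1g and -0.468 with Fcgr4), and Fcgr2b followed none closely (0.271 to 0.509). The points share the split into M1 and M2 libraries, and the values are given as a description. Among 10325 genes with at least 5 CPM on average, the 5 most like Fcgr1 were Epsti1, Parp10, H2-T22, Mnda and Daxx (r of 0.996 to 0.998). For Fcer1g they were H2-T23, Trafd1, Gsdmd, Znrf1 and Il15 (0.995 to 0.996), for Fcgr4 Ms4a7, Nr1h3, Itm2b, Tmem221 and Fth1 (0.988 to 0.994), and for Fcgr3 Vegfb, Cerk, Wdr91, Vps18 and Dpp7 (0.956 to 0.970). For Fcgr2b the closest were Inpp4a, Hpgds, Sepp1, Tmem87b and Lgmn, at 0.841 to 0.918. By Spearman's rank correlation, the top 5 shared 2 genes with this list for Fcgr2b, 1 for Fcgr3 and none for the other members.

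The chromosome 1 neighbours of the receptors were counted in the same fit. Of 34 other genes tested within 250 kb of the cluster, 13 were higher and 1 lower in WT M1 than in WT M2, beside 18.9% and 20% of all genes. In PGRN KO over WT 2 were higher and 3 lower in M1, beside 14.2% and 11.1%, and 4 were higher and none lower in M2, beside 11.1% and 8.3%. In 14-3-3e KO over WT 1 was higher and 3 lower in M1, beside 12% and 9.31%, and 1 was higher and none lower in M2, beside 3.32% and 3.37%. None had a called interaction in either knockout by limma.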

How the data were processed

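RNA sequencing was compared in 18 libraries, 3 in each of 6 groups taken from the labels. The authors deposited 1 table of log2 values per gene, and the values show them to be the log2 of a normalized count plus 1. STAR, RSEM 1.3.1 and DESeq2 are named per the submitters' processing notes, which also name the build GRCh38 although the gene IDs are those of mouse; which of them made the table is not stated there. After the logarithm was undone, 100% of values were whole reads to within 0.1 of a read, which gave the depth of each library, 5.16 to 105 M reads. Normalized counts without the length compare a gene between libraries, and levels of different genes were compared per kb of exon.

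The 21336 genes that reached a normalized count of 1 in 3 or more libraries, all 5 receptor genes among them, were fitted in 1 model of 6 groups with limma 3.58.1 (trend, robust; R 4.3.3), because log2 values call for a model on the log scale. p-values were adjusted by Benjamini and Hochberg across the 21336 genes, and 0.05 was the threshold. Fold changes are on the scale of log2 of the normalized count plus 1 and understate the change of low genes. The script was tested on simulated data. Tables and figures were made with Python 3.11.15, pandas 2.3.3, numpy 2.4.6, scipy 1.17.1 and matplotlib 3.10.9. Exon lengths came from GENCODE M21, in which 42424 of the 43309 gene IDs were found, and promoters from RefSeq.

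The receptor genes, the gene lists and the marker lists were chosen with earlier results of these data known, so they are no independent evidence. Besides the receptor genes, Grn and Ywhae, up to 3 rises and 3 falls with the smallest p past the threshold were eligible to be named from each list and comparison, and for each receptor gene the 5 genes most like it by Pearson correlation, without predicted genes or clone names. Some genes of the lists are counted but not reported by name here. Of the cell types a marrow culture could hold, neutrophil, B cell, T and NK cell, mast cell and basophil, dendritic and erythroid or megakaryocyte markers were also summed.

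Replicate numbers appear in every group. Libraries with the same number deviated together (correlations of 0.40 to 0.53) in 14-3-3e KO M1 and M2, the comparison where all 3 pairs were over 0.1. In the other comparisons the pairs ranged between -0.35 and 0.35, some of them over 0.1 but never all 3. Other pseudocounts, filters, scalings, weights, depths and sets of libraries were tried as alternatives.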

Additional observations from a re-analysis of the deposited data

Results flagged for a closer look

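The effect of the PGRN knockout on Fcgr4 differed between M1 and M2 cells by a test of the difference itself. Fcgr4 changed by a log2 of 0.13 in PGRN KO M1 against WT M1 and by 1.99 in PGRN KO M2 against WT M2, and the interaction was -1.86 (SE 0.24, adjusted p = 1.20e-03, limma). All 3 PGRN KO M2 libraries (1167 to 1337 normalized counts) lay above all 3 WT M2 libraries (275 to 355), while PGRN KO M1 (11549 to 13653) overlapped with WT M1 (10497 to 12392). No group had the 4 libraries needed to look for a single outlying one.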

How the results depend on the processing

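Of 500 refits of a receptor gene's fold change under another setting, 482 kept direction and side of the threshold, and of 390 refits without 1 library 369 did. With library totals as the scaling, Fcgr2b was -0.32 in PGRN KO M1 over M2 and -0.68 for the PGRN KO interaction (both then called), Fcgr1 0.32 and Fcgr3 0.33 in PGRN KO over WT in M1 and in M2, and Fcgr3 -0.29 in 14-3-3e KO over PGRN KO in M2 (3 calls lost). Uncalled differences turned sign: Fcgr2b (-0.0068) and Fcer1g (-0.073) in PGRN KO over WT in M1, Fcgr3 in 14-3-3e KO over WT in M2 (0.039) and in the 14-3-3e KO interaction (-0.043). The members called were then 1 in PGRN KO over WT in M1 and 2 for the PGRN KO interaction, and 37 genes of all were called for the 14-3-3e KO interaction. Without the 2 ribosomal RNA-rich libraries, Fcgr1 in PGRN KO over WT in M1 was 0.37 (1 member called), Fcer1g -0.036, Fcgr3 in the 14-3-3e KO interaction -0.077, and 120 genes were called in it. With only the groups compared, Fcgr1 (-0.51), Fcgr2b (-0.46) and Fcer1g (-0.43) lost their calls in 14-3-3e KO over WT in M1, leaving 1 member. All-gene counts were then 385 there (4541 with all libraries fitted), 2134 in PGRN KO over WT in M1 (5399), 5218 in WT M1 over M2 (8303), 93 for the PGRN KO interaction (267) and 8 for the 14-3-3e KO interaction (61); fewer libraries were then fitted. With only genes of at least 5 CPM, Fcgr2b in the PGRN KO interaction (-0.63, 2 members called) and Fcgr1 in 14-3-3e KO over PGRN KO in M2 (-0.33) were called, with fewer genes tested. At the depth of the shallowest library Fcgr3 in the 14-3-3e KO interaction was -0.030, and all-gene counts were 2757 and 783 in 14-3-3e KO over WT in M1 and M2 (1427 in M2 at full depth), 110 for the PGRN KO and 20 for the 14-3-3e KO interaction, which was 15 with voom weights. The log2 M1 over M2 change of the activating to inhibitory ratio was 1.84 in PGRN KO, 1.39 in 14-3-3e KO and 1.36 in WT, with median coding transcript lengths (added after the data were seen) 1.58, 1.13 and 1.07, and without lengths 2.02 in PGRN KO and 1.56 in 14-3-3e KO. Other causes of these shifts were not tested.

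Without 1 library at a time, the ranges that crossed a threshold or 0 were -0.14 to 0.057 for Fcgr2b in 14-3-3e KO M1 over M2, 0.37 to 0.45 for Fcgr1 and -0.036 to 0.072 for Fcer1g in PGRN KO over WT in M1, 0.34 to 0.42 for Fcgr3 in PGRN KO over WT in M2, -0.17 to 0.061 for Fcgr3 in 14-3-3e KO over WT in M1, and in M2 -0.42 to -0.10 for Fcgr1, -0.0052 to 0.20 for Fcgr2b and -0.64 to -0.21 for Fcgr4. They were -0.72 to -0.51 for Fcgr2b in the PGRN KO interaction, -0.085 to 0.15 for Fcgr3 in the 14-3-3e KO interaction and -0.49 to -0.17 for Fcgr1 in 14-3-3e KO over PGRN KO in M2. Members called ranged over 1 to 2 in PGRN KO over WT in M1, 0 to 1 in 14-3-3e KO over WT in M2 and 1 to 2 for the PGRN KO interaction. All genes called ranged over 2752 to 3725 in PGRN KO over WT in M2, 2272 to 6458 and 577 to 1650 in 14-3-3e KO over WT in M1 and M2, 100 to 659 for the PGRN KO and 9 to 192 for the 14-3-3e KO interaction. The count moved by over 1.5 times without PGRN KO M2 replicate 3 in PGRN KO over WT in M2; without WT M1 replicate 1 (2751) and 14-3-3e KO M1 replicates 1 (2981) and 2 (2272) in 14-3-3e KO over WT in M1; and without each M2 library but WT M2 replicate 2 in 14-3-3e KO over WT in M2. In the interactions it rose to 659 without WT M1 replicate 1 and to 192 without WT M1 replicate 2, and it was lowest without PGRN KO M2 replicate 3 (100) and without WT M2 replicate 1 or 14-3-3e KO M2 replicate 2 (9).

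A replicate block changed none of the 55 fold changes' calls: Fcgr4 in PGRN KO over WT in M2 stayed at 1.99 (adjusted p = 6.49e-07, limma) and all genes called in 14-3-3e KO M1 over M2 were 6508. With a block on only these 2 groups, chosen after the data were seen because their numbers pair, 8916 genes were called, and no receptor gene's call changed.

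The 20.4-fold range of depth limits low genes most: in M2 cells Fcgr4 rested on as few as 201 reads a library. Fcgr3 and Fcgr2b share identical exon sequence, and whether and how reads inside it were counted is not known. Groups of 3 libraries, 1 culture protocol and no protein or surface measurement bound what the receptor values describe.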

Other observations

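Markers of other cell types had lower sums than those of macrophages and of stroma in all 18 libraries. Single genes were not all low. In WT M1 the neutrophil marker S100a9 was at 71.5 to 181 CPM and the B cell marker Ighm at 73.4 to 155 CPM. The macrophage marker Mertk was at 25.6 to 51.3 CPM there. Neutrophil markers summed to between 43.6 and 391.8 CPM, B cell markers to between 34.5 and 227 CPM, and erythroid and megakaryocyte markers to between 26.5 and 154 CPM. Mast cell and basophil markers summed to between 8.15 and 41.5 CPM, dendritic cell markers to between 3.30 and 8.61 CPM, and T and NK cell markers to between 0.871 and 7.40 CPM. Among the listed genes without a read in a group were Ly6g in PGRN KO M1 and WT M1, Siglech in WT M1, and Retnlg and Cd3d in WT M2.

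Among the macrophage markers were Mertk, a receptor for apoptotic cells, and Cd14, the lipopolysaccharide co-receptor. Mertk was higher in PGRN KO M1 than in WT M1 by a log2 of 1.88 (adjusted p = 3.96e-06) and in PGRN KO M2 than in WT M2 by 2.08 (adjusted p = 1.73e-06), and differed from WT by 0.21 in 14-3-3e KO M1 (adjusted p = 0.464) and 0.48 in 14-3-3e KO M2 (adjusted p = 0.129). Cd14 was lower in PGRN KO M1 than in WT M1 (-0.60, adjusted p = 0.0146) and higher in 14-3-3e KO M1 than in WT M1 (1.01, adjusted p = 9.59e-04). Both were picked out after their values were seen, and the adjusted p-values are from limma.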
